A study of Arabidopsis thaliana with 6 samples.

Results

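A set of 62 probe sets gave a higher signal on the replicate 1 array than on the replicate 3 array in the pkl-1 mutant and, separately, in wild type, while the genotype means stayed close. The members were chosen by the deposited signals themselves, under a rule: replicate 1 minus replicate 3 of at least 1 log2 unit, which is 2-fold, in each genotype, and an absolute difference between the genotype means below 0.5 log2 units. They are 62 of 22746 probe sets, or 0.273%. A platform table paired 31 of them with 1 gene each and left the other 31 unnamed here, and no member matched several genes. The set is thus defined by a difference between replicate samples that was present in each genotype. The gap between replicates 1 and 3 and the genotype difference chose the members, so they are given as descriptions with no test.

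Whole Arabidopsis thaliana seedlings aged 14 days were profiled on Affymetrix arrays, 3 for pkl-1 and 3 for wild type (Col-0). The pkl-1 allele affects PICKLE (PKL), an ATPase that remodels chromatin and belongs to the CHD3 group; its probe set is unnamed here, so its level was not analysed. All seedlings came from bleach-sterilised seed plated singly on Murashige and Skoog agar and grew under constant light, with no further treatment. The labels number the biological replicates 1 to 3 in each genotype but state no day, plate or batch that equal numbers share, and whether seedlings were pooled is not given in the sources used here. Each number is thus 1 array per genotype, and no difference between numbers can be tested within a genotype.

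The values are log2 signals, one per probe set and array, from GCRMA. Array medians lay between 5.03 and 5.13 log2 units. The labelled tissue was checked with marker genes: PYK10, a beta-glucosidase of roots, lay at 11.94, 12.08 and 11.87 log2 units in pkl-1 and at 12.02, 11.77 and 12.05 in wild type, and the 7 measured nuclear photosynthesis genes had a median level of 12.15, so that root and green tissue were both present. In whole seedlings, fewer cells of a type and less RNA per cell cannot be told apart.

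The named members come from several processes whose workings are well known. Pectin is a gel-forming polysaccharide of the cell wall, and enzymes that trim its chains or remove their methyl groups change how firmly cells are held together during growth. Light is read by phytochromes and cryptochromes, whose activity small regulatory proteins adjust, and hormones such as abscisic acid, gibberellin and cytokinin act beside them on seedling growth. Glycosyltransferases, acyltransferases and cytochrome P450 enzymes modify small molecules by adding sugars, acyl groups or oxygen. Of the 31 named members, 8 carry a symbol in the gene table and 23 have only a locus name; roles given for the latter are background knowledge and not taken from the table.

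Across the 62 members the median gap was 1.27 log2 units in pkl-1, with a range of 1.00 to 2.64, and 1.28 in wild type, with a range of 1.01 to 3.45. Over all 22746 probe sets the median gap was 0.02 in pkl-1 and 0.05 in wild type. The gap reached 2 log2 units in 5 members in pkl-1 and in 4 in wild type. It was larger in pkl-1 for 26 members and larger in wild type for 36. In 47 members the gaps of the genotypes lay within 0.5 log2 units of each other, and in 4 they differed by 1 or more. With 1 array per number this difference has no replicate check.

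Replicate 2 entered the rule only through the limit on the genotype means, and its place is therefore largely free. In pkl-1 it lay between replicates 1 and 3 in 58 of 62 members, and in wild type in 55, with 52 members showing this in both genotypes. The median member had its replicate 2 value at 52.5% of the way up from replicate 3 to replicate 1 in pkl-1 and at 55.8% in wild type. Between-lying is what a wide gap itself favours: among 170 probe sets with a gap of at least 1 in pkl-1 only, replicate 2 lay between in 89.4%, and among 238 with such a gap in wild type only, in 88.2%. The members' shares, 93.5% for pkl-1 and 88.7% for wild type, were close to these, and the difference was not tested.

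**Figure D1:**
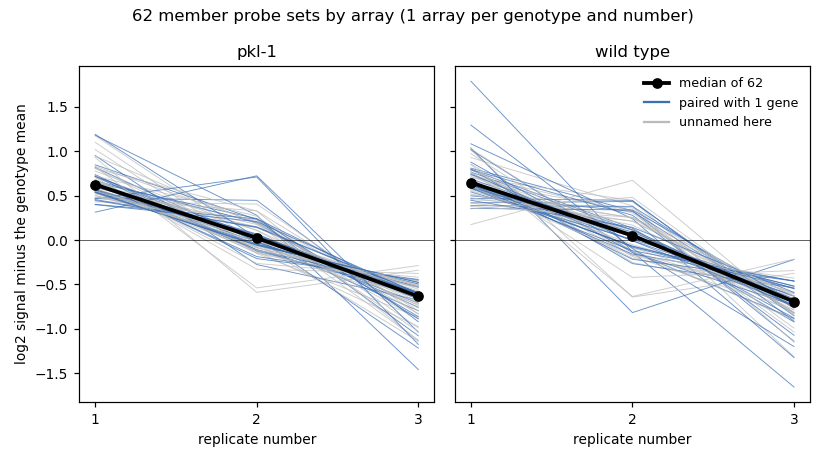
Each thin line is 1 of the 62 member probe sets, drawn as log2 signal minus its genotype mean (vertical axis) against replicate number (horizontal axis), with pkl-1 on the left and wild type on the right; blue lines are paired with 1 gene, grey lines are unnamed here, and the black line is the median. The lines run downward by the rule, and replicate 2 lies between the others in 58 members in pkl-1 and in 55 in wild type.

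Genes of pectin metabolism include the member with the widest gaps. AT1G60590, a locus of the pectin lyase-like superfamily to which polygalacturonases belong, had the largest gap of all members when the smaller of its 2 gaps is taken. Its signal was 8.57, 7.67 and 5.93 log2 units on pkl-1 arrays 1, 2 and 3, against 8.56, 8.08 and 6.60 on the wild-type arrays. Replicate 1 was nearly equal in the genotypes, and replicate 3 was the low array in both, with gaps of 2.64 (pkl-1) and 1.95 (wild type). A second locus of this superfamily, AT1G10640, stood at 8.00, 7.53 and 6.47 in pkl-1 and at 7.89, 7.72 and 6.57 in wild type. AT5G19730, of the pectinesterase family that removes methyl groups from pectin, stood at 6.70, 5.85 and 5.33 in pkl-1 and at 7.40, 6.25 and 5.49 in wild type. The pkl-1 and wild-type arrays overlapped for all 3 loci. Their means over the 6 arrays were 7.57 (AT1G60590), 7.36 (AT1G10640) and 6.17 (AT5G19730) log2 units, against a median of 5.93 for the members.

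These loci are not reached by the symbol-based list of cell wall genes, which held 42 measured genes, among them expansins, xyloglucan-modifying enzymes (XTH) and cellulose synthase-like genes. None of its genes was a member, where 0.232% of all genes named alone were. EXPA8, an alpha-expansin, was the only gene of the list with a gap of at least 1 in both genotypes, 3.41 in pkl-1 against 2.24 in wild type, and the limit on the genotype difference kept it out. In the opposite direction, 8 genes of the list were at least 1 log2 unit lower on replicate 1 than on replicate 3 in both genotypes, 4 of them within the limit on the genotype difference. The list had a median gap of -0.13 in pkl-1 and of -0.20 in wild type. It also holds named pectin genes, which did not share the direction of the 3 loci. ATPMEPCRB, a pectin methylesterase gene, lay at 5.84, 6.82 and 7.83 log2 units in pkl-1 and at 5.33, 6.36 and 8.18 in wild type. Its gaps of -1.99 (pkl-1) and -2.85 (wild type) ran opposite to those of the pectinesterase locus AT5G19730, within the limit on the genotype difference. GAUT15, of a family of pectin-synthesising galacturonosyltransferases, was lowest on replicate 1 in both genotypes, at 4.85, 5.35 and 6.85 in pkl-1 and at 4.98, 5.05 and 5.64 in wild type. PME61, another pectin methylesterase gene, had gaps of -0.07 (pkl-1) and 0.00 (wild type).

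Among light signalling genes, AT3G44450, known as BIC2, an inhibitor of cryptochrome activity, had the widest single gap. Its level was 5.52, 4.29 and 3.89 log2 units on pkl-1 arrays 1, 2 and 3, against 6.48, 4.55 and 3.03 on the wild-type arrays. The wild-type arrays spanned the pkl-1 arrays at both ends, with a gap of 3.45 in wild type and 1.63 in pkl-1. AT1G18810, known as PKS3, of the family of phytochrome kinase substrates, gave 7.12, 7.09 and 5.72 in pkl-1 and 7.73, 6.89 and 5.32 in wild type. In pkl-1 its replicates 1 and 2 were nearly equal and only replicate 3 was low. These are 2 of the 4 members whose gaps differed between genotypes by at least 1, and both were wider in wild type. The symbol-based list of clock and light genes had 3 measured genes and 0 members. HYH, a bZIP factor of light signalling related to HY5, had gaps of 1.90 (pkl-1) and 1.14 (wild type) but differed by -1.29 log2 units between the genotype means and is no member.

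Members of hormone pathways were XERICO and RR16. XERICO encodes a RING-H2 protein that raises abscisic acid levels and is repressed by gibberellin. Its signal was 7.17, 6.48 and 5.69 log2 units in pkl-1 and 7.73, 7.07 and 6.01 in wild type, with gaps of 1.48 (pkl-1) and 1.71 (wild type). Each wild-type array was above the pkl-1 array of the same number, and its genotype difference of -0.49 was the largest among the members.

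RR16, also called ARR16, is a type-A response regulator, a class induced by cytokinin that dampens cytokinin signalling. It stood at 4.80, 5.21 and 3.45 in pkl-1 and at 5.58, 3.73 and 4.33 in wild type. Replicate 2 was the highest array in pkl-1 and the lowest in wild type, and RR16 was the only member in which replicate 2 lay outside the range of replicates 1 and 3 in both genotypes. Of the 6 response regulator genes measured by named probe sets, RR16 was the only member, and the median gap of the 6 was 0.02 in pkl-1 and 0.09 in wild type. Their median level was 2.24 log2 units, near the lower quartile of all probe sets, 2.14, and GCRMA leaves dim probe sets with little spread. ARR15 had gaps of -0.26 (pkl-1) and 0.81 (wild type). The lists of abscisic acid and cold genes (14 measured), gibberellin genes (6) and auxin genes (17) held 0 members. Of all genes named alone, 0.232% were members, so lists of this size mostly hold none.

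SWEET1, a plasma membrane glucose transporter, was at 6.16, 6.40 and 4.51 log2 units in pkl-1 and at 6.76, 6.10 and 5.65 in wild type. In pkl-1 replicates 1 and 2 were high and replicate 3 stood apart; in wild type replicate 2 lay between. Of 15 measured SWEET genes it was the only member, and the family's median gap was -0.04 in pkl-1 and 0.17 in wild type. The family's median level was low, at 3.39 log2 units. SWEET2 came nearest, with gaps of 0.74 (pkl-1) and 0.58 (wild type).

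Glycosyltransferases, HXXXD-type acyltransferases and a cytochrome P450 gave 5 named members. They catalyse different reactions and are put together here only as enzymes known to modify small molecules, a grouping made after the members were known. UGT76E11, a glycosyltransferase that acts on flavonoids, gave 6.60, 5.77 and 5.51 log2 units in pkl-1 and 6.51, 5.61 and 5.37 in wild type. Replicate 1 alone was high in both genotypes, and the curves nearly coincided. AT4G09500, also of the glycosyltransferase superfamily, was dimmer, at 4.13, 3.27 and 3.03 in pkl-1 and 3.97, 3.46 and 2.68 in wild type. CYP71B26, a cytochrome P450, gave 7.22, 6.90 and 6.17 in pkl-1 and 7.38, 7.36 and 6.33 in wild type, with replicate 3 as the low array in both.

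The other 2 enzymes belong to the HXXXD-type acyltransferases, named for a motif of their active site. AT5G02890 gave 6.72, 6.21 and 5.56 log2 units in pkl-1 and 7.29, 6.77 and 5.42 in wild type. AT5G67150 gave 7.88, 7.71 and 6.83 in pkl-1 and 7.99, 7.29 and 6.95 in wild type. The list of detoxification genes, which takes in the UGT, CYP and glutathione transferase symbols, held 104 measured genes, of which UGT76E11 and CYP71B26 were members. The list had median gaps of 0.10 (pkl-1) and 0.11 (wild type). Positive gaps in both genotypes were found in 51 of its genes, or 49.0%, the 2 members among them by the rule. Negative gaps in both were found in 29, or 27.9%. Of all probe sets, 36.8% were positive in both and 27.2% negative in both. Lists with 0 members leaned either way. Of 19 redox genes 11 were positive in both and 3 negative in both. Of 20 calcium signalling genes 4 were positive in both and 10 negative in both. These shares were not tested. Of 47 UGT genes 1 was a member; 19 had positive gaps in both genotypes and 16 negative gaps in both, with medians of 0.16 (pkl-1) and 0.00 (wild type). Of 19 CYP71 genes 1 was a member, with 8 positive and 5 negative in both genotypes and a median level of 3.67 log2 units.

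Chloroplast gene expression was represented by CRR28, a pentatricopeptide repeat protein that edits plastid transcripts of the NDH complex, and by AT5G57960, a GTP-binding protein of the HflX type. CRR28 was among the dimmest members, at 3.18, 2.98 and 2.17 log2 units in pkl-1 and 3.70, 2.94 and 2.22 in wild type. Its gap of 1.00 was the smallest of the set in pkl-1. AT5G57960 was at 7.10, 6.50 and 6.08 in pkl-1 and at 7.65, 6.95 and 6.48 in wild type. Besides CRR28, 4 CRR genes were measured, and none of them had a gap of 1. Of the 4, 3 had positive gaps in both genotypes, where 36.8% of all probe sets did. The gaps of CRR42 were 0.83 (pkl-1) and 0.78 (wild type), those of CRR21 were 0.72 (pkl-1) and 0.60 (wild type), those of CRR41 were 0.52 (pkl-1) and 0.31 (wild type), and those of CRR22 were -0.05 (pkl-1) and 0.30 (wild type). These genes were grouped only by the letters of their symbol, because CRR28 is a member, and their gaps were not tested. Genes of photosynthesis itself (7 measured) had median gaps of 0.11 (pkl-1) and 0.01 (wild type).

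Regulatory and redox proteins came next. bHLH34, a transcription factor of the iron deficiency response, gave 4.93, 4.34 and 3.92 log2 units in pkl-1 and 5.41, 4.83 and 4.13 in wild type. The gaps of its close relative bHLH104 were 0.19 in pkl-1 and 0.01 in wild type. Other genes measured under a bHLH symbol differed. BHLH101 had opposed gaps, 2.35 (pkl-1) and -1.65 (wild type). The gaps of bHLH121 were -0.34 (pkl-1) and -0.64 (wild type), and those of bHLH115 were 0.10 (pkl-1) and -0.0008 (wild type). AT4G33040, a glutaredoxin of the plant-specific CC type, gave 5.69, 5.05 and 4.47 in pkl-1 and 5.72, 4.70 and 4.10 in wild type. AT3G23880, an F-box protein, gave 7.45, 6.28 and 5.04 in pkl-1 and 7.00, 6.44 and 5.77 in wild type; it is the only one of the 4 members with gaps at least 1 apart that was wider in pkl-1, at 2.41 in pkl-1 against 1.23 in wild type.

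CPUORF47 is a locus annotated for a conserved peptide encoded by an upstream open reading frame. It lay at 5.66, 4.82 and 4.04 log2 units in pkl-1 and at 5.93, 5.28 and 4.28 in wild type, with gaps of 1.62 (pkl-1) and 1.65 (wild type), the third largest among named members by the smaller gap. AT5G01790, the last of the 4 members with unequal gaps, lay at 6.45, 5.96 and 5.30 in pkl-1 and at 7.07, 5.68 and 4.57 in wild type.

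The remaining named members do not fall into a common process. AT2G39920, of the HAD-type acid phosphatases, had gaps of 1.93 (pkl-1) and 1.38 (wild type) from low levels on the replicate 3 arrays, 2.57 in pkl-1 and 2.35 in wild type. AT1G11700, of a family named for senescence regulators, had gaps of 1.43 (pkl-1) and 1.34 (wild type), and AT3G56080, of the methyltransferase superfamily, had gaps of 1.31 (pkl-1) and 1.27 (wild type). The brightest named member was AT1G72030, related to N-acetyltransferases, at 9.11, 8.61 and 7.92 in pkl-1 and 9.01, 8.71 and 7.97 in wild type. AT5G54630, AT5G19970, AT1G77400, AT1G48330, AT2G36470, AT5G19875 and AT1G49470 complete the named members, with gaps of 1.04 to 1.53 in pkl-1 and 1.08 to 1.43 in wild type.

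**Figure D2:**
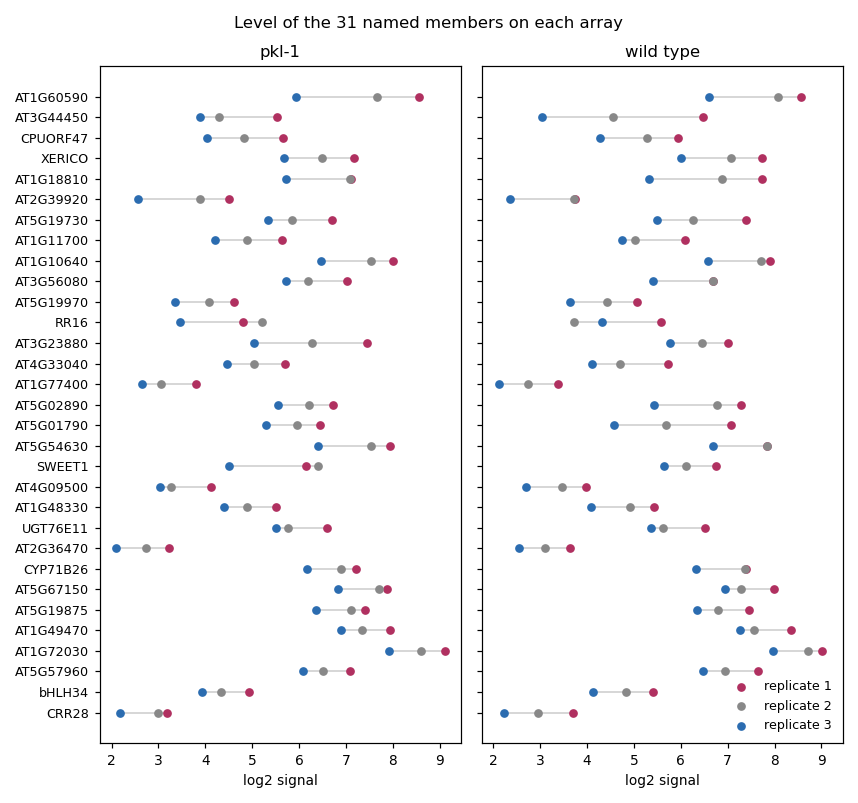
Log2 signal (horizontal axis) of the 31 named members on each array, with pkl-1 on the left and wild type on the right; points are single arrays coloured by replicate number, grey bars span the 3 arrays, and genes are ordered from top to bottom by the smaller of their 2 gaps. AT1G60590 is at the top and CRR28 at the bottom, and in SWEET1 (pkl-1) and RR16 (both genotypes) replicate 2 lies clearly outside the range of the other arrays.

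Among the 31 members unnamed here, probe set 250167_at had the second largest smaller gap of the whole set. It lay at 5.92, 4.75 and 4.03 log2 units in pkl-1 and at 5.93, 5.39 and 3.69 in wild type. The brightest member of all was 253922_at, at 10.99, 10.29 and 9.84 in pkl-1 and 11.20, 10.50 and 9.96 in wild type. Replicate 2 fell outside the range of the other arrays in at least 1 genotype in 10 members, of which 3 were named, RR16, SWEET1 and AT3G56080.

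In the symbol-based lists, 491 distinct genes were measured by a probe set that names 1 gene. Of these, 4 were members, or 0.815%, namely RR16, SWEET1, UGT76E11 and CYP71B26, where 0.232% of all genes named alone were members. The lists were chosen with earlier results of these data known, and the difference between these shares was not tested. In 32 of 35 lists there was no member. At so low a share a list of few genes mostly holds none, so an empty list says nothing about its process. No single process covered the named members.

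The members were expressed at middle levels. Their mean over the 6 arrays ran from 2.64 to 10.46 log2 units with a median of 5.93, against a median of 5.09 over all probe sets. Below the lower quartile of all probe sets, 2.14, lay 0 members, and above the upper quartile, 7.65, lay 4. GCRMA leaves dim probe sets with little spread, so the rule itself disfavours them. The 202 probe sets that met the rule in the opposite direction also had 0 below the lower quartile, with a median level of 6.79. No member carried a suffix for probes shared between transcripts, which 4.66% of all probe sets had. All 31 named members are protein-coding in the TAIR10.1 gene table, with a median gene length of 1732 bp, against 2105 bp over 13286 measured loci. They lie on all 5 nuclear chromosomes, 10 on chromosome 1, 4 on chromosome 2, 6 on chromosome 3, 2 on chromosome 4 and 9 on chromosome 5, and no 2 are adjacent protein-coding genes. The closest, AT5G19875 and AT5G19970, have 9 protein-coding genes between them. No second probe set for any named member was paired with that gene alone.

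Between genotypes, the members differed little, which the rule demanded. The pkl-1 mean was the higher in 24 and the lower in 38, with a median of -0.04 log2 units against 0.01 over all probe sets. With limma over all probe sets, 0 of 62 members passed an adjusted p of 0.05, where 2.37% of all probe sets passed; 0 members had an unadjusted p under 0.05, against 14.9% of all. The pkl-1 and wild-type arrays overlapped in all 62, while they were separate in 21.0% of all probe sets. Nothing about the members can be read from these counts, since the rule used this contrast. The median standard error of a genotype difference was 0.44 for the members and 0.16 for all probe sets, since the spread between replicates by which they were chosen enters it.

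Where the gap was wide in both genotypes it nearly always had the same sign. A gap of at least 1 was found for 308 probe sets in pkl-1, for 376 in wild type and for 138 in both, or 0.607% of all. The limit on the genotype difference removed 76 of these 138, of which 66 were lower in pkl-1 and 10 higher, with a median difference of -1.05 log2 units. In the opposite direction, 346 probe sets were at least 1 lower on replicate 1 in both genotypes, of which 202, or 0.888% of all, met the limit on the genotype difference. Opposed gaps of this size occurred in 4 probe sets that were high on replicate 1 in pkl-1 and low on it in wild type, and in 0 the other way round.

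**Figure D3:**
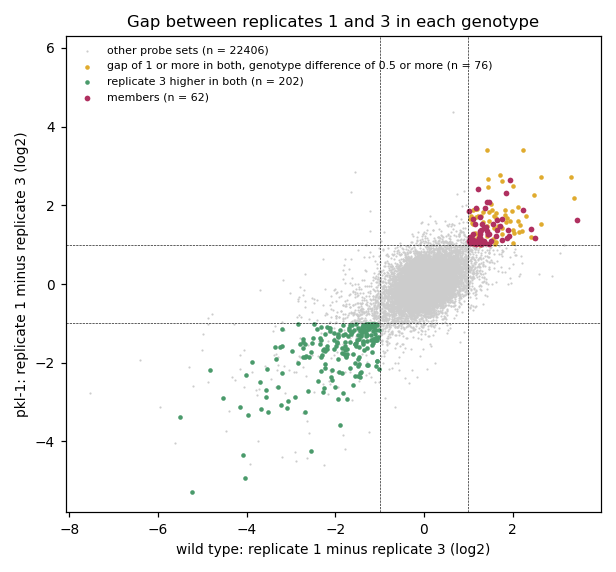
Replicate 1 minus replicate 3 in pkl-1 (vertical axis, log2 units) against the same in wild type (horizontal axis, log2 units), with 1 point per probe set; dashed lines mark 1 and -1. The 62 members and the 76 probe sets kept out by the genotype limit share the upper right corner, and the 202 probe sets higher on replicate 3 lie in the lower left.

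At the threshold, the members with the smallest gaps were CRR28 (1.00 in pkl-1, 1.48 in wild type), an unnamed probe set (1.10 in pkl-1, 1.01 in wild type) and bHLH34 (1.01 in pkl-1, 1.28 in wild type). Just outside stood AT2G44940 (0.98 in pkl-1, 2.06 in wild type) and 2 unnamed probe sets, at 0.99 in pkl-1 with 1.48 in wild type, and at 0.98 in each genotype. At the limit on the genotype difference, XERICO (-0.49) and SWEET1 (-0.48) were inside, and AT3G22104 (-0.56) and 2 unnamed probe sets (-0.50 and -0.56) were outside.

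Control probe sets were set beside the members. The hybridisation controls, bacterial and phage transcripts added to the labelled sample in fixed amounts, were lower on replicate 1 than on replicate 3 in both genotypes for 15 of 18 probe sets and higher in both for 0, with median gaps of -0.22 (pkl-1) and -0.53 (wild type). Their gaps ran opposite to those of the members, and their part in the members' gaps was not tested. The Bacillus poly-A controls had median gaps of -0.16 (pkl-1) and -0.07 (wild type), and the Arabidopsis controls for ribosomal RNA, actin, GAPDH and ubiquitin 0.06 in pkl-1 and 0.08 in wild type. The 3′ minus 5′ signal grows as RNA breaks down. For GAPDH it was 1.29, 1.39 and 1.36 on pkl-1 arrays 1, 2 and 3, against 1.47, 1.32 and 1.29 on the wild-type arrays, with replicate 1 lowest in pkl-1 and highest in wild type. A second set of these controls gave higher 3′ minus 5′ values on replicate 1 than on replicate 3 for GAPDH (0.08 against -0.04 in pkl-1, 0.11 against -0.08 in wild type) and actin (0.53 against 0.45 in pkl-1, 0.62 against 0.31 in wild type) and lower ones for ubiquitin (0.26 against 0.43 in pkl-1, 0.06 against 0.36 in wild type). The part of these values in the members' gaps was not tested.

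**Figure D4:**
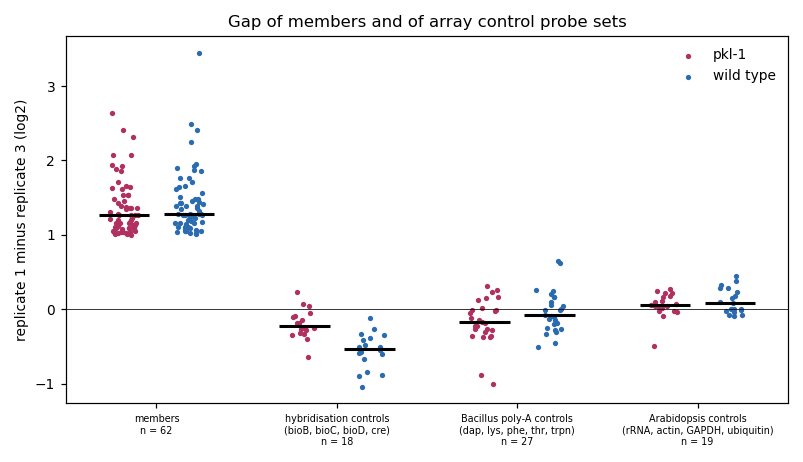
Replicate 1 minus replicate 3 (vertical axis, log2 units) for the members and for 3 kinds of control probe sets, with pkl-1 left of wild type in each pair; points are probe sets and black bars are medians. The members lie at or above 1 by the rule, with medians of 1.27 (pkl-1) and 1.28 (wild type), and the hybridisation controls lie mostly below 0, with medians of -0.22 (pkl-1) and -0.53 (wild type).

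Tissue markers were also set beside the members. The summed linear signal of 9 root markers on replicate 1 was 1.01 times that on replicate 3 in pkl-1 and 0.943 times in wild type, and lay between 4103 and 4572 over the pkl-1 arrays and between 3803 and 4761 over the wild-type arrays. PYK10 alone made up 91.2% to 95.0% of this sum in pkl-1 and 88.9% to 92.8% in wild type. The summed signal of the other 8 root markers was lower on replicate 1, with ratios of 0.583 (pkl-1) and 0.612 (wild type). Of these, XTH18, a xyloglucan-modifying enzyme, had gaps of -2.62 (pkl-1) and -2.01 (wild type) and weighed heavily on these ratios. The median gap of the 8 was 0.02 in pkl-1 and -0.56 in wild type. For all 9 root markers it was 0.07 in pkl-1 and -0.55 in wild type. The 7 photosynthesis genes had ratios of 1.07 (pkl-1) and 1.00 (wild type), with sums of 28742 to 31119 in pkl-1 and 33293 to 34837 in wild type. The 45 flower markers, with sums of 993 to 1067 in pkl-1 and 819 to 952 in wild type, had ratios of 1.06 (pkl-1) and 1.16 (wild type). The summed signal of the 4 guard cell markers was higher on replicate 1 in both genotypes, with ratios of 1.33 (pkl-1) and 1.20 (wild type). The sums were 370 to 493 in pkl-1 and 295 to 354 in wild type. Of the 4 genes 3 were higher in both genotypes, where 36.8% of all probe sets were. The summed signal of the 6 seed markers was lower on replicate 1, with ratios of 0.850 (pkl-1) and 0.466 (wild type). The sums were 564 to 844 in pkl-1 and 66.9 to 205 in wild type. Of the 6 genes 4 were lower in both genotypes, where 27.2% of all probe sets were. A single gene also dominated these last sums; without STOMAGEN the guard cell ratios were 1.01 (pkl-1) and 1.38 (wild type), and without ICL the seed ratios were 0.726 (pkl-1) and 0.971 (wild type). Leaving out the brightest gene was chosen after the sums were seen. None of the marker genes was a member, and their part in the members' gaps was not tested.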

How the data were processed

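Whole-seedling RNA was measured on 6 arrays, 3 per genotype. Each deposited value is a log2 signal that the authors obtained with GCRMA, per the submitters' processing notes; the version is not given in the sources used here, and the log2 scale was read from the values. GCRMA leaves dim probe sets with little spread, so gaps at low levels depend on its background estimate. The 64 control probe sets were kept out of the rule. Names came from the platform table, updated through the TAIR10.1 gene table (13513 probe sets with 1 gene, 503 with several, 8730 unnamed here).

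Members were taken by the rule on the deposited values. The comparison of genotypes used limma 3.58.1 under R 4.3.3 (mean-dependent prior, 2-sided, Benjamini-Hochberg over 22746 probe sets). In simulated data with independent noise and 200 changed probe sets, it recovered 52% of 2-fold and 88% of 4-fold changes. The changed probe sets all lay above the lower quartile of mean signal. The p-values of limma set the genotype difference against the spread between these samples. The 35 gene lists match symbols or synonyms by pattern, so a few entries may be namesakes, with the brightest probe set standing for a gene. The members and lists were chosen with earlier results of these data known. The naming rule took the 15 largest smaller gaps, list and family members, processes with at least 3 members, and the genes next to the threshold; the text goes beyond it and covers all 31 named members, and family and list genes that are no members were named after their values were seen. Promoter motifs were planned and not analysed here. Alternatives were quantile normalization, median centring, other thresholds, the replicate number as a block, other moderation and each array left out. Plots used matplotlib 3.10.9 and Python 3.11.15.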

Additional observations from a re-analysis of the deposited data

How the results depend on the processing

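The set held 59 members after quantile normalization (58 of them shared with the 62) and 59 after median centring (all shared). Leaving out probe sets below the lower quartile of mean signal kept 62 by construction, since 0 members lay there. The set held 138 without the limit on the genotype difference and 7 at a threshold of 1.5 log2 units, both also by construction. The gaps of the 31 named members moved by less than the spread between replicates under both rescalings. The rule makes that spread wide in members, so this comparison could hardly turn out otherwise. Of the 31, 29 were still at or above 1 after quantile normalization and 31 after median centring. Replicate 2 lay between the others in 56 to 58 members in pkl-1 and 55 to 56 in wild type; these checks were added after seeing the data. In the comparison of genotypes, 540 of 22746 probe sets passed, or 2.37%. With the replicate number as a block 1518 of 22746 did, and with 1 array left out 123 to 303 did, which leaves fewer samples. Of the members, 0 passed under every alternative run. With the block, 9 of the 62 had an unadjusted limma p under 0.05, against 20.4% of all probe sets. Nothing about the members can be read from these counts, since the rule limits the genotype difference. Between arrays of equal number, the departures from each genotype mean had correlations over all probe sets of 0.49 (replicate 1), -0.02 (replicate 2) and 0.58 (replicate 3). They were -0.56 between pkl-1 replicate 1 and wild-type replicate 3, and -0.51 between pkl-1 replicate 3 and wild-type replicate 1. Arrays of replicates 1 and 3 thus correlated best with their own number, and those of replicate 2 did not. The labels state no shared batch, so the main fit did not pair the arrays by number. Depth does not apply to arrays; 1 array per genotype and number limits every gap given here.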
